A study of Mus musculus with 17 samples.

Results

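The colons of Pxr-null (Pxr-/-) and wild-type (WT) mice that had not received the PXR ligand PCN were compared on 9 of the 17 arrays of the series, namely 4 arrays of the group WT CONT (replicates 2, 3, 4 and 5) and 5 of the group Pxr-/- CONT (replicates 1 to 5), chosen by the sample labels. All mice were males on the C57Bl/6J background. WT mice were purchased at 6 weeks of age and acclimatized for 2 weeks, whereas Pxr-/- mice had been backcrossed and then bred for 10 years in the animal facility of the laboratory, so that genotype and colony of origin cannot be told apart. The age of the Pxr-/- mice is not given in the sources used here. All these mice received corn oil, the vehicle of PCN, by daily intraperitoneal injection for 4 days, and were killed 6 h after the last injection, at zeitgeber time 6 (ZT6, hours after lights on). The 8 remaining arrays, 4 WT PCN and 4 Pxr-/- PCN, came from mice given PCN at 100 mg/kg in the same way. RNA of colon was labelled with Cy3 and hybridized to 1-colour arrays, and nothing in the labels ties samples to cages or litters.

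PXR (pregnane X receptor, gene Nr1i2) is a nuclear receptor that binds drugs, steroids and bile acids and, as a dimer with RXR, switches on genes of xenobiotic oxidation, conjugation and export. It is abundant in liver and in the intestinal epithelium, where it is also known to restrain NF-kB driven inflammatory genes. Colon tissue holds colonocytes, mucus-secreting goblet cells, immune cells, muscle and nerves. In such bulk samples, fewer cells of a type and less RNA per cell cannot be told apart.

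Several arrays stood apart before any comparison. Pancreatic acinar genes (8 measured) had a mean log2 signal of 16.73 on the array WT CONT replicate 4, of 14.52 on Pxr-/- CONT replicate 2, and of 7.21 to 8.98 on the other 7 arrays. The mean of 11 liver genes was 11.97 in WT CONT replicate 5 where the rest of WT CONT lay at 8.73 or lower and Pxr-/- CONT at 7.36 to 8.22. Pxr-/- CONT replicate 2 and the array labelled WT PCN replicate 3 were near-identical, with an SD of their log2 difference of 0.233 over all probes (r = 0.9962), below that of any pair of replicates of a same group (lowest 0.264). Aqp8, the water channel of surface colonocytes, was well above background on all 9 arrays (15.86 to 16.66).

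Few genes passed the test between the genotypes. With limma on log2 values, wash bath as a covariate and Benjamini-Hochberg adjustment, 21 of 36695 probes (0.0572%), for 20 gene or transcript names, passed both thresholds for a call, an FDR of 0.05 or less and more than 1.5-fold. Of these names, 7 were higher (8 probes, 0.0218%) and 13 lower (13 probes, 0.0354%) in Pxr-/- CONT. Genes lower in Pxr-/- colons included the carboxylesterase Ces2a, the inducible nitric oxide synthase Nos2, 3 immunoglobulin light chain entries and transcripts of chromosome 16 on either side of Nr1i2, read by 5 probes. Genes higher in Pxr-/- colons included the lectin Itln1, the stress-response gene Gadd45g and the bombesin-family receptor Grpr. The median difference over 23761 genes, each represented by its brightest probe, was 0.01 log2 units. The number of calls depended on single arrays: it was 0 without Pxr-/- CONT replicate 3 or without WT CONT replicate 5, 1 without Pxr-/- CONT replicate 2 (5330426P16Rik), and 301 genes without WT CONT replicate 4.

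The targeted gene was examined first. The only Nr1i2 probe in the value table lies at chr16:38248745-38248804 (mm9, minus strand), and whether it falls within the deleted part of the allele is not given in the sources used here. The probes of Nr1i2 and of the called chromosome 16 transcripts are given here in lower case, 5′ to 3′, as deposited, since they separate the genotypes.
Nr1i2: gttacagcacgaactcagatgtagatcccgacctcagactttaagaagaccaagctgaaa
5330426P16Rik: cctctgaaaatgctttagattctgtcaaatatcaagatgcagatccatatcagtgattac
Dubr: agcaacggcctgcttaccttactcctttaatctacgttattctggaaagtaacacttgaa
A130072N09Rik: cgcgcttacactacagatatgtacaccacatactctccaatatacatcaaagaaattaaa
Gm609: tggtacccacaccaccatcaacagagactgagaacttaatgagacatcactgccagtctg
Gm15658: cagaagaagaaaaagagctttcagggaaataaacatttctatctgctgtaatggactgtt

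The Nr1i2 log2 signal was 12.13, 12.45, 11.91 and 11.83 in WT CONT (replicates 2 to 5) and 11.45, 10.97, 10.54, 11.05 and 11.17 in Pxr-/- CONT (replicates 1 to 5). Every Pxr-/- array was below every WT array, and the probe remained well above background on all of them. The difference was -1.05 ± 0.19 log2 units (SE), with an adjusted p of 0.0927 in limma, so that Nr1i2 was not called. A two-sided exact permutation of the 9 labels gave p = 0.0159, the smallest that this design allows. The difference was -1.5 in wash bath 1 and -0.67 in wash bath 2.

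The transcripts around Nr1i2 gave the sharpest separation. The probe of 5330426P16Rik, at chr16:50719998-50720057, read 6.68, 6.42, 6.51 and 6.70 in WT CONT and 5.29, 5.46, 5.32, 5.17 and 5.46 in Pxr-/- CONT. It was well above background on the 4 WT arrays and on none of the 5 Pxr-/- arrays, and the RNA was therefore at least 2.32-fold lower (limma, adjusted p = 0.00711). This probe was called in 17 of 24 other settings of the analysis, more often than any other called probe.

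A130072N09Rik, at chr16:45984049-45984108, read 7.63, 7.86, 7.44 and 7.74 in WT CONT and 6.42, 6.50, 6.60, 6.49 and 6.57 in Pxr-/- CONT. The gap between the groups exceeded the range within either, and the difference was -1.14 ± 0.09 (SE, adjusted p = 0.00958). Gm609, at chr16:45418007-45418066, was at 6.86 to 7.07 in WT CONT and at 5.81 to 6.17 in Pxr-/- CONT (difference -0.94, adjusted p = 0.0245). Dubr, a long noncoding RNA at chr16:50728099-50728158, fell by 0.82 (adjusted p = 0.0442). RefSeq lists 5330426P16Rik as an older name of Dubr, so these 2 probes may read 1 gene and were counted as 2 names. Gm15658, at chr16:33770535-33770594, fell by 0.83 (adjusted p = 0.0466).

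These 5 probes lie 4.48 Mb to one side of the Nr1i2 probe (Gm15658) and 7.17 to 12.5 Mb to the other. Of the 580 probes within 20 Mb of Nr1i2, 7 (1.21%) were called, all of them lower, the other 2 being immunoglobulin lambda probes 19.2 Mb away. By comparison 0 of 662 probes on the rest of chromosome 16 and 14 of 35453 other probes (0.0395%) were called. Groups did not overlap for 14.3% of probes within 20 Mb, 7.40% on the rest of the chromosome and 6.18% elsewhere, with 6.33% over all probes. At an FDR of 0.10 with a fold over 1.5, 15 probes of this window passed (2.59%), 11 of them lower, against 0.302% on the rest of the chromosome and 0.282% elsewhere. The window's width and these probes were chosen with earlier results known, so these shares are a description.

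**Figure D1:**
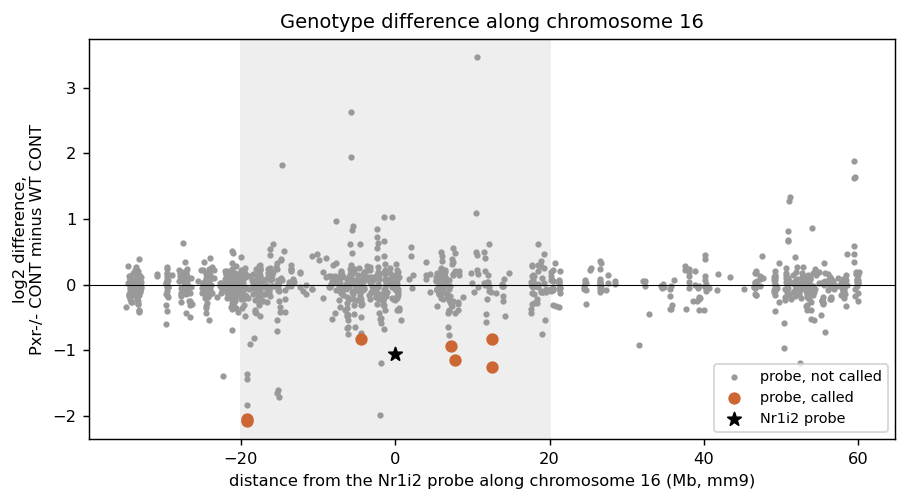
Difference between Pxr-/- CONT and WT CONT (log2) for the probes of chromosome 16 against their distance from the Nr1i2 probe in Mb (mm9), with the window of 20 Mb on either side shaded. The 7 called probes (large circles) all lie inside the window and below 0, as does the Nr1i2 probe (star), which was not called.

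On the arrays of PCN-treated mice the probes of 5330426P16Rik, A130072N09Rik and Dubr went against labels, and those of Gm609 and Gm15658 did so in part. 5330426P16Rik read 6.54 and 6.82 in WT PCN replicates 1 and 2 but 5.23 and 5.19 in WT PCN replicates 3 and 4, within or near the Pxr-/- CONT range of 5.17 to 5.46. It read 5.21, 5.19 and 5.32 in Pxr-/- PCN replicates 1, 2 and 4 but 6.12 in the array labelled Pxr-/- PCN replicate 3. A130072N09Rik gave the same pattern, with 6.58 and 6.36 in WT PCN replicates 3 and 4 and 7.50 in the array labelled Pxr-/- PCN replicate 3. Dubr did so too, with 6.49 and 6.28 in the former and 7.10 in the latter. Gm609 read 6.56 and 5.79 in WT PCN replicates 3 and 4, and 6.21 and 6.69 in Pxr-/- PCN replicates 3 and 4. Gm15658 read 8.92, 8.23, 8.10 and 7.89 in WT PCN replicates 1 to 4, and 8.22 in Pxr-/- PCN replicate 3. WT PCN replicate 4 and Pxr-/- PCN replicate 2 were near-identical over all probes (SD of the log2 difference 0.165, r = 0.9981). No array was moved to another group. With the labels as given, 0 probes (0%) were called between the genotypes under PCN (limma, 815 probes at an unadjusted p under 0.05), and 0 probes differed in their genotype difference between PCN and CONT (interaction, 2038 probes at an unadjusted p under 0.05). Of the 21 called probes, 15 had the same direction under PCN as in CONT.

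**Figure D2:**
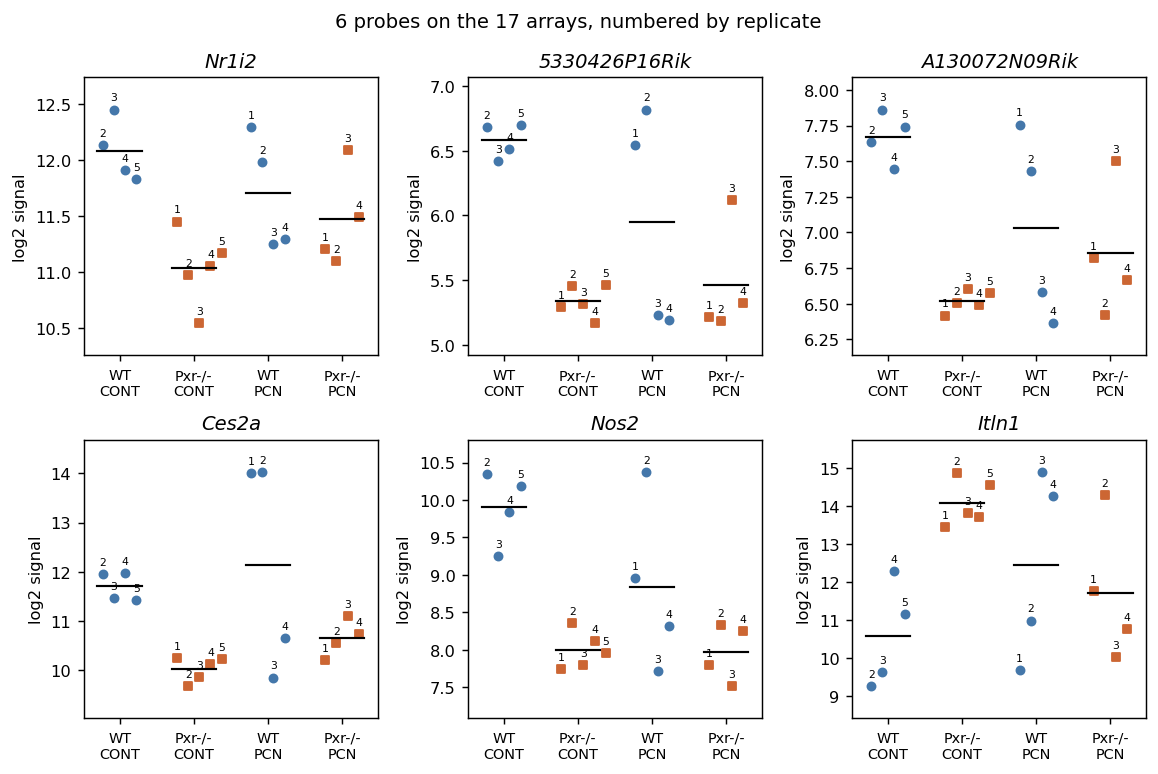
Log2 signal of 6 probes on all 17 arrays, with circles for WT, squares for Pxr-/-, numbers for replicates and lines for group means (the Itln1 panel shows its brighter probe). The CONT groups separate at each probe, whereas WT PCN replicates 3 and 4 lie at Pxr-/- levels and the array labelled Pxr-/- PCN replicate 3 lies near WT levels for Nr1i2, 5330426P16Rik and A130072N09Rik.

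Among genes of xenobiotic metabolism that PXR is known to control, 35 of 44 listed genes were measured and 1 of them, Ces2a, was called, where 0.0673% of all genes were. Ces2a, an esterase that cleaves drugs and lipids, read 11.95, 11.47, 11.98 and 11.42 in WT CONT and 10.25, 9.68, 9.86, 10.12 and 10.23 in Pxr-/- CONT. The groups were more than 1 log2 unit apart, and Ces2a fell by 1.68 ± 0.17 (SE, adjusted p = 0.0354), or 3.20-fold. On the PCN arrays it reached 14.00 and 14.02 in WT PCN replicates 1 and 2, and was 9.86 and 10.66 in replicates 3 and 4.

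The genes of the multidrug exporters were next in this list. Abcb1a, which encodes an epithelial P-glycoprotein, read 14.00, 14.09, 13.75 and 13.87 in WT CONT and 13.20, 12.75, 13.05, 13.46 and 12.98 in Pxr-/- CONT (difference -0.81 ± 0.12, adjusted p = 0.0637). Its neighbour Abcb4, a phospholipid exporter, gave -0.74 (adjusted p = 0.0675) and Abcb1b, encoding the second P-glycoprotein, -0.69 (adjusted p = 0.0965). For these 3 genes the groups did not overlap but the test was not passed. Abcb1a and Abcb1b are close paralogs, and cross-hybridization between them was not tested. Ces2c, another carboxylesterase, gave -0.57 (adjusted p = 0.164), with overlapping groups.

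Over the whole list, differences went both ways, but those with the smallest p were lower. At an unadjusted p under 0.05 in limma, 7 of the 35 genes were lower and 0 higher, against 6.21% and 6.74% of all genes. The differences of 15 of the 35 genes were above 0, and the median was -0.06 against 0.01 over all genes. The 4 genes Ces2a, Abcb1a, Abcb4 and Abcb1b (11.4%) did not overlap and were lower, against 2.64% of all genes (5.5% did not overlap in either direction). Cyp3a11 and Cyp2c55, cytochromes P450 that PXR ligands induce and that are named here outside the naming rule, gave -0.22 (adjusted p = 0.472) and -0.94 (adjusted p = 0.520). Of 6 measured targets of the dioxin receptor AHR, none was called. Among 25 measured nuclear receptor genes, none was called, and beside Nr1i2 the smallest p was that of Nr4a1, an immediate early gene, with a difference of 0.96 (adjusted p = 0.140).

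Of the lists examined, the highest median difference was that of type I interferon-stimulated genes, the antiviral genes switched on by interferons alpha and beta. None of the 39 measured genes of this list (of 40) was called at an FDR of 0.05. However, the difference was above 0 for 39 of 39, where 53.2% of all genes were above 0, and the median was 1.17 against 0.01. The groups did not overlap, with Pxr-/- CONT higher, for 24 genes (61.5%) against 2.86% of all genes. At an unadjusted p under 0.05, 36 of 39 were higher, against 6.74% of all genes, and 5 passed an FDR of 0.10 with a fold over 1.5, against 0.215% of all genes. The list was chosen with results of these data known, and its genes are induced together, so these counts are not independent.

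Mx1 is listed in RefSeq as a transcribed pseudogene in the mouse. Its probe read 8.59, 8.23, 9.25 and 8.97 in WT CONT and 10.17, 11.62, 10.73, 10.46 and 10.42 in Pxr-/- CONT (difference 1.88 ± 0.28, adjusted p = 0.0675). Oas2, a sensor of double-stranded RNA, read 9.84, 9.93, 9.87 and 10.37 in WT CONT and 11.93, 14.20, 13.81, 12.80 and 11.42 in Pxr-/- CONT (difference 2.86 ± 0.54, adjusted p = 0.0943). For both genes every Pxr-/- array was above every WT array, and for Oas2 replicates 2 and 3 were the highest and replicate 5 the lowest of the Pxr-/- arrays. Ifi44, an interferon-induced gene, gave 2.54 ± 0.45 (adjusted p = 0.0840), with WT CONT arrays at 6.21 to 6.90 and Pxr-/- CONT arrays at 7.81 to 10.09. Rtp4, a chaperone-like interferon target that itself lies on chromosome 16 14.6 Mb from Nr1i2, gave 1.82 ± 0.34 (adjusted p = 0.0927).

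The mean of the list per array was 10.04 to 10.43 in WT CONT and 10.66 to 12.29 in Pxr-/- CONT, lowest in replicate 5 and highest in replicate 2. Pxr-/- CONT replicate 2 is the array that is near-identical to the array labelled WT PCN replicate 3. Without it, 38 of 39 genes had a difference above 0 and the median was 0.96. Without the 3 arrays with pancreatic or liver transcripts, which leaves 2 WT CONT arrays, both of bath 1, 28 of the 39 genes were called as higher. Over all probes 1.73% were called in either direction in that setting, and 321 of 36695 as higher. With array weights 25 were called, where 1.65% of all probes were called in either direction and 242 of 36695 as higher. Under PCN, with labels as given, the median difference was 0.41.

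**Figure D3:**
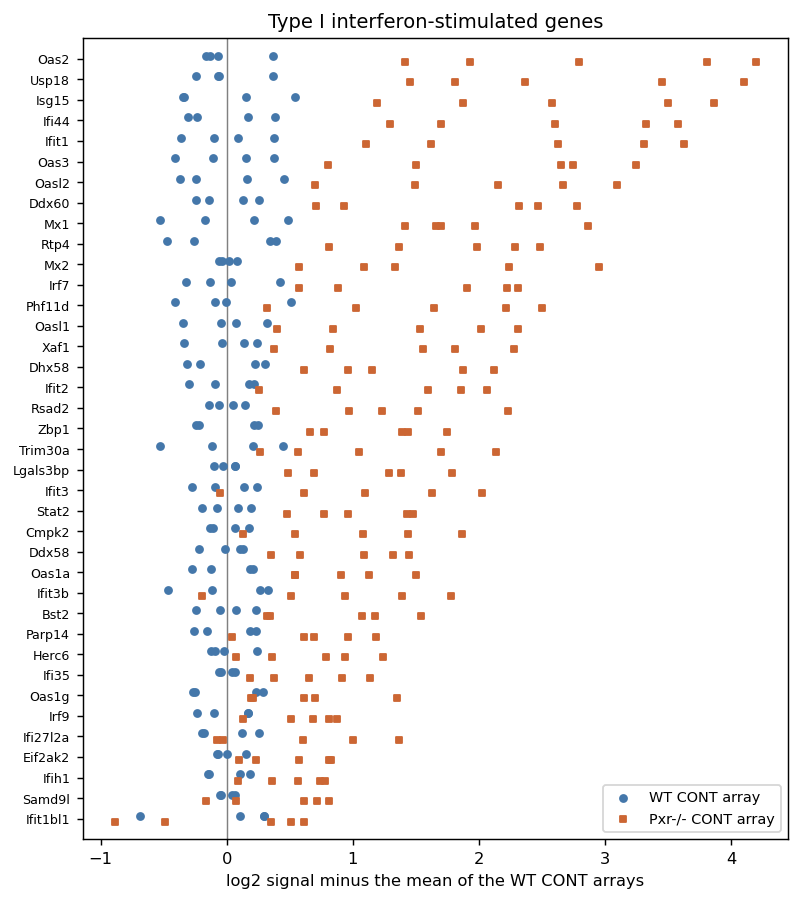
Log2 signal of 38 of the 39 measured type I interferon-stimulated genes (rows) on the WT CONT arrays (circles) and the Pxr-/- CONT arrays (squares), relative to the mean of the WT CONT arrays. Pxr-/- CONT arrays lie to the right of all WT CONT arrays for 24 genes and spread widely among themselves, between list means of 10.66 and 12.29.

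Promoters of these genes were read from RefSeq (GRCm38.p6), 250 bases before the start of the gene, for 29 of the 39 genes. The letters GAAANNGAAA, the core of the element bound by the interferon-stimulated factor, were found on either strand in 13 of 29 genes (44.8%) and in 3.46% of the 27025 genes of the promoter table. Among 12 interferon-gamma GTPase and chemokine genes with a promoter 9 held a match. The 3 promoters below are those of the matching genes with the smallest p in the list, with the matches in capitals (overlapping matches are merged, and TTTCNNTTTC is the same motif on the other strand).
Stat2 (chr10:128270248-128270497, plus strand): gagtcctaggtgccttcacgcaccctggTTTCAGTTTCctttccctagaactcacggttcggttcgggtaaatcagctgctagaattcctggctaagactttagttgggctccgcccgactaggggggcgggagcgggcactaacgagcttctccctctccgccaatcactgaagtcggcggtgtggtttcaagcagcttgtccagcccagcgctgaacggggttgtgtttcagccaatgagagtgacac
Isg15 (chr4:156200819-156201068, minus strand): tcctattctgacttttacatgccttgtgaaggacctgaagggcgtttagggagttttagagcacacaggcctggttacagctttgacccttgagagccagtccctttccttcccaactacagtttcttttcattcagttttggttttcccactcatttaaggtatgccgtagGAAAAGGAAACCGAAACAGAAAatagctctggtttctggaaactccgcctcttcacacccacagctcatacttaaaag
Ifit1 (chr19:34640639-34640888, plus strand): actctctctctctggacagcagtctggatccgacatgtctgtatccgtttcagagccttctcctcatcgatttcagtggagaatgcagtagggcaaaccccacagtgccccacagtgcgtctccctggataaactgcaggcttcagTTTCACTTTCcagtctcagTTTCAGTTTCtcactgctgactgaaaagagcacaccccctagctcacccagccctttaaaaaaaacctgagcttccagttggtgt
A match is a description of letters and not of binding. The Ifi44 promoter, of the gene with the second smallest p in the list, held no match in this window.

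The GTPases and chemokines induced by interferon gamma differed less. Of 19 measured genes none was called, 16 had a difference above 0, 10 were higher at an unadjusted p under 0.05 and the median was 0.49. Irgm2, a GTPase that acts on vacuoles of intracellular pathogens, gave 0.87 (adjusted p = 0.199), Irgm1 0.84 (adjusted p = 0.203) and Igtp 0.99 (adjusted p = 0.254). In all 3, the Pxr-/- CONT replicate with the lowest signal was replicate 5, which overlapped WT CONT. For MHC class I presentation, 12 of 12 differences were above 0 with a median of 0.30 and no call, led by the transactivator Nlrc5 at 1.04 (adjusted p = 0.197). For MHC class II presentation, 0 of 10 were above 0, with a median of -0.25 and no call.

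Antimicrobial genes of the epithelium moved in opposite directions. Of 22 measured genes, 1 was called as higher (Itln1) and 1 as lower (Nos2), where 0.0673% of all genes were called, and the median was -0.11. Intelectin 1 (Itln1), a lectin of goblet and Paneth cells that binds microbial sugars, was called with 2 probes. The brighter probe, at chr1:173448282-173448341, read 9.26, 9.63, 12.27 and 11.16 in WT CONT and 13.43, 14.85, 13.81, 13.70 and 14.55 in Pxr-/- CONT. WT replicates 2 and 3 of bath 1 were below replicates 4 and 5 of bath 2, and all Pxr-/- arrays were above them. WT replicates 4 and 5 are also the arrays with pancreatic or liver transcripts, so that in WT bath and these transcripts cannot be told apart. Among the Pxr-/- arrays the baths overlapped. Itln1 was 10.2-fold higher in Pxr-/- CONT (3.36 ± 0.43, adjusted p = 0.0471), by 4.31 in bath 1 and 2.56 in bath 2. This probe was called in 10 of 25 other settings, and was not called without the wash bath term. The second probe gave 3.0 (adjusted p = 0.0486).

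Another probe, of the intelectin-1a-like entry LOC102642530, gave 3.33 with an adjusted p of 0.0587. It shares a run of 24 bases with the second Itln1 probe, in capitals here, so that signals of the intelectin genes cannot be assigned to 1 copy.
Itln1, second probe: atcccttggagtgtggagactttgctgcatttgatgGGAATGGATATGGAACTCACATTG
LOC102642530: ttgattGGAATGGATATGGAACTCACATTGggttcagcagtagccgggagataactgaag

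Other secreted defence genes of the list did not pass the test. Ang4, a bactericidal ribonuclease, read 13.33, 14.27, 16.17 and 15.76 in WT CONT and 16.60 to 17.40 in Pxr-/- CONT (difference 1.98 ± 0.38, adjusted p = 0.0943). Retnlb, which encodes the goblet cell protein RELMbeta, lies on chromosome 16, 10.6 Mb from Nr1i2. Its probe read 10.65, 12.55, 15.92 and 13.92 in WT CONT and 16.06 to 17.32 in Pxr-/- CONT (difference 3.47 ± 0.76, adjusted p = 0.129). In both, as for Itln1, WT CONT replicates 2 and 3 were the lowest arrays, and the groups did not overlap. The pentraxin Mptx1 gave 0.65 (adjusted p = 0.130) and the protease inhibitor Serpina3n -0.58 (adjusted p = 0.208).

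Nos2, which makes nitric oxide in epithelial and myeloid cells, read 10.35, 9.25, 9.83 and 10.18 in WT CONT and 7.74, 8.35, 7.80, 8.12 and 7.95 in Pxr-/- CONT. It was 3.79-fold lower in Pxr-/- CONT (-1.92 ± 0.23, adjusted p = 0.0442), with no overlap. Of 16 measured inflammatory cytokines and chemokines none was called, and 2 had a difference above 0 (median -0.34). Tnf, the NF-kB driven cytokine, gave -1.02 (adjusted p = 0.146) and the neutrophil attractant Cxcl5 -0.94 (adjusted p = 0.148), both without overlap. Ccl20, which draws B cells and dendritic cells to the epithelium, gave -1.44 (adjusted p = 0.220) and Ccl28, which draws IgA plasma cells, -0.65 (adjusted p = 0.227). This list and the neutrophil list were highest in WT CONT replicate 5, the array with liver transcripts, and without it the median of this list was -0.25.

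Of 9 measured neutrophil genes none was called and 1 had a difference above 0 (median -0.53, or -0.28 without WT CONT replicate 5). Mmp9, a gelatinase, was well above background on 4 of 4 WT CONT arrays and on 0 of 5 Pxr-/- CONT arrays, and at least 1.46-fold lower in the latter (adjusted p = 0.0675). The calprotectin genes S100a8 and S100a9 gave -1.17 (adjusted p = 0.197) and -1.27 (adjusted p = 0.230). Of 16 measured T cell and cytotoxic genes none was called: Cd3e, a chain of the T cell receptor complex, gave -0.35, Cd8a 0.66 and the granule gene Nkg7 0.65.

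Immunoglobulin transcripts were among the largest differences. The lambda variable 1 transcript read 14.79, 14.35, 14.19 and 13.98 in WT CONT and 12.49, 12.13, 11.84, 12.18 and 12.78 in Pxr-/- CONT. It fell by 2.05 (adjusted p = 0.0369), and the Iglv1 probe fell by 2.08 (adjusted p = 0.0442). These 2 probes share 54 of 60 bases (in capitals) and are 1 measurement in effect.
Lambda variable 1 transcript: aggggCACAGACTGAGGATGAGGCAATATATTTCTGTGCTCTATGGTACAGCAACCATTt
Iglv1: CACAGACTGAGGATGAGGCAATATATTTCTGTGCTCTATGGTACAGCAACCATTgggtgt

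A kappa variable 6-13 transcript fell by 1.69 (adjusted p = 0.0442), from 8.66 to 9.28 in WT CONT to 6.91 to 7.86 in Pxr-/- CONT. A heavy constant gamma 2C probe, at chr12:114525673-114525732, read 8.45, 6.64, 8.08 and 9.39 in WT CONT and 13.06, 11.39, 12.39, 12.15 and 12.23 in Pxr-/- CONT, and rose by 4.05 ± 0.50 (adjusted p = 0.0442). The 2 other probes of the gamma 2C transcript gave 1.99 (adjusted p = 0.203) and 0.66 (adjusted p = 0.651) with overlapping groups, so that the probes of this transcript disagree. Among 87 heavy chain variable probes 12 had a difference above 0 (median -0.73) and none was called. Among 95 kappa variable probes 17 were above 0 (median -0.70). None of 13 B cell and follicle genes was above 0 (median -0.99, no call), whereas the median of 9 plasma cell genes was -0.07.

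The other called genes belong to no list. Gadd45g, which responds to growth arrest and DNA damage, read 12.00, 11.60, 12.27 and 12.50 in WT CONT and 13.18, 13.61, 13.26, 12.85 and 13.77 in Pxr-/- CONT, and rose by 1.19 (adjusted p = 0.0470). Grpr, the receptor of gastrin-releasing peptide, on chromosome X, rose by 1.03 (adjusted p = 0.0442), from 8.46 to 9.42 in WT CONT to 9.79 to 10.33 in Pxr-/- CONT. A lincRNA probe at chr15:58327704-58327763 rose by 2.77, a RIKEN transcript on chromosome 6 (chr6:66844760-66844819) by 1.73 and E130008D07Rik on chromosome 17 by 0.79. As for Itln1, WT CONT replicates 2 and 3 had lower signals than replicates 4 and 5 for Grpr, the lincRNA and the RIKEN transcript. Gadd45g, Grpr, the lincRNA, the RIKEN transcript and E130008D07Rik were not called without the wash bath term.

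Crebl2, which encodes a bZIP protein, fell by 0.72 (adjusted p = 0.0265) with its called probe, while its 3 other probes gave -0.17, -0.12 and -0.01, none below an adjusted p of 0.372. The called probe of Pkm, the pyruvate kinase of glycolysis, fell by 0.79 (adjusted p = 0.0430), and its 3 other probes gave -0.45, -0.24 and -0.24 without a call. Tmem171, a membrane protein gene, fell by 0.61 (adjusted p = 0.0364) with 1 probe and gave -0.36 (adjusted p = 0.130) with the other. In each of these genes the other probes thus had the sign of the called one but smaller differences, smallest for Crebl2.

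The remaining lists held no called gene. Of 7 measured genes known to vary between mouse strains or substrains, 5 were above 0 (median 0.08). Nnt, whose gene carries a deletion in C57BL/6J mice, read 10.77 to 11.04 in WT CONT and 10.90 to 11.88 in Pxr-/- CONT (difference 0.58, adjusted p = 0.199), with overlap. Of 13 measured goblet cell and mucus genes 9 were above 0 (median 0.20): Spink4 gave 0.64 (adjusted p = 0.0943) and the mucin Muc13, 4.43 Mb from Nr1i2, -0.49 (adjusted p = 0.0927), both without overlap. Another, less bright probe of Muc13 gave -0.73 (adjusted p = 0.0752), also without overlap or a call. Of 26 measured PPARalpha targets and fatty acid oxidation genes 5 were above 0 (median -0.20), and Slc25a20, the mitochondrial carnitine carrier, gave -0.73 (adjusted p = 0.0761). Of 23 cholesterol synthesis genes 18 were above 0 (median 0.17), led by Pmvk at 0.28 (adjusted p = 0.188). Among colonocyte transport genes (21 measured, median -0.12), the carbonic anhydrase Car2 gave -0.46 (adjusted p = 0.199) and Aqp8 -0.39 (adjusted p = 0.169). The clock genes Nr1d1 and Nfil3 gave -0.65 (adjusted p = 0.172) and 0.66 (adjusted p = 0.183), with a list median of -0.04. Medians lay between -0.07 and 0.17 for lists of plasma cells, tuft cells, enteroendocrine cells, crypt cells, tight junctions, smooth muscle, enteric nerves, Hox genes, lipogenesis, bile acid handling, squamous epithelium and skeletal muscle. The medians of 13 macrophage and dendritic genes and of 9 venule and endothelial genes were -0.24 and -0.11.

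**Figure D4:**
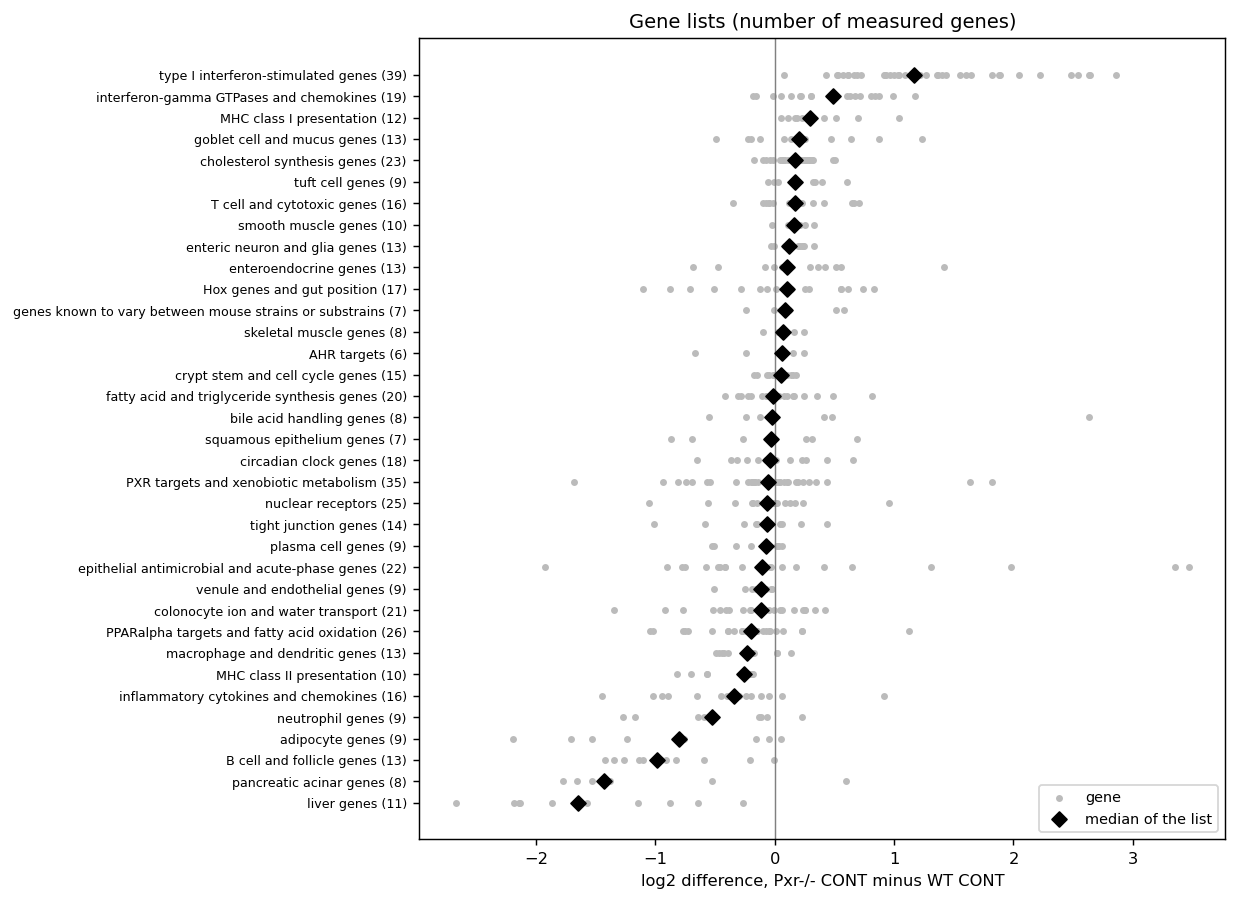
Difference between Pxr-/- CONT and WT CONT (log2) for each measured gene of 35 lists (grey points) with the median of each list (diamonds) and the number of measured genes in brackets. The type I interferon list has the highest median, 1.17, and the lists of pancreatic and liver genes, which are high in single arrays, the lowest.

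Lists of other tissues held no called gene, and the medians of the liver and pancreatic lists depended on single arrays. The medians were -1.65 for 11 liver genes, -1.43 for 8 pancreatic acinar genes and -0.81 for 9 adipocyte genes, Cfd (adipsin) giving -2.19 (adjusted p = 0.227) and Fabp4 -0.81 (adjusted p = 0.214). Without WT CONT replicate 5 the median of the liver list was -0.40. The median of the pancreatic list was 1.31 without WT CONT replicate 4, -2.79 without Pxr-/- CONT replicate 2, -3.61 without WT CONT replicate 5, and -0.52 or -0.53 without Pxr-/- CONT replicate 1 or 5. That of the adipocyte list was below 0 in each of 25 other settings. It was -1.21 without Pxr-/- CONT replicate 4, and -0.13 without the 3 arrays with pancreatic or liver transcripts. The mean of this list was 9.91 to 10.82 in WT CONT and 8.99 to 10.52 in Pxr-/- CONT, highest among the latter in replicate 4. The haptoglobin gene Hp was 11.96 to 14.42 in WT CONT and 10.35 to 12.35 in Pxr-/- CONT, highest among the latter in replicate 4, and Cyp2e1 was 9.57 to 11.65 in WT CONT and 6.52 to 10.29 in Pxr-/- CONT. The share of these tissues in the differences of the called genes was not tested.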

How the data were processed

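The arrays are 1-colour Agilent arrays of colon RNA, annotated on mm9. Groups and replicate numbers came from the submitters' labels. The authors extracted spots with Agilent Feature Extraction 10.10.1.1, and the methods state that the median signals were filtered, log2 transformed, corrected for wash bath and normalized with CrossNorm. The log2 values deposited by the authors (36695 probes) were used. The scanner intensity columns of the deposited files served for the settings compared in the closing section and for the background flags. Between 62.7% and 71.0% of spots were well above background, and the number of arrays limits the precision. The replicates are not stated to be separate cages or litters, so p-values measure the spread between these arrays.

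Probes were named through RefSeq by accession (24629 probes, 1183 renamed) and otherwise by the file. A linear model with group and wash bath (bath 1, WT replicates 2 and 3 and Pxr-/- replicates 3 and 4, the others in bath 2) was fitted to the 9 CONT arrays with limma 3.58.1 in R 4.3.3, with Benjamini-Hochberg adjustment over all probes, and checked on simulated data. The PCN comparison used the 8 PCN arrays and the interaction all 17. A gene with several probes was represented in lists by its brightest probe. Genes were named by rule: Nr1i2, every called gene, and of the lists up to 4 others with the smallest p. The comparison, the lists and the rule were chosen with earlier results of these data known. A probe not well above background on any array of a group was given as a bound against the lowest signal well above background. Alternatives concerned the source of signal, background correction, filter, bath, slide, pairing, weights and single arrays. A gene of the interferon list is not reported here by name or in the plot.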

Additional observations from a re-analysis of the deposited data

Results flagged for a closer look

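A single array stood apart from the other arrays of its group in 13 of the 218 groups of values examined (Dixon's criterion at its 95% level, so that chance alone flags about 1 group in 20). Pxr-/- CONT replicate 4 stood apart for adipocyte genes and for 2 genes of the liver list (Hp and Cyp2e1), with Fabp4 at 12.70 (others at most 11.91), Cfd at 14.07 (at most 11.30), Hp at 12.35 (at most 10.60), Cyp2e1 at 10.29 (at most 7.35) and a mean of the adipocyte list of 10.52 (at most 9.42). Its mean over all 11 liver genes was 8.22, against 8.13 in replicate 3. Pxr-/- CONT replicate 2 stood apart for pancreatic acinar genes, with a mean of 14.52 (others at most 8.98). Pxr-/- CONT replicate 5 had a mean of 9.58 for interferon-gamma GTPases and chemokines, below 10.30 to 10.46 in the others.

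WT CONT replicate 5 stood apart for liver genes (mean 11.97, others at most 8.73) and for inflammatory cytokines (mean 9.27, others at most 8.94). WT CONT replicate 4, the array highest for pancreatic genes, was lowest for colonocyte transport genes (mean 12.96, others at least 13.16) and clock genes (mean 9.79, others at least 10.17). WT CONT replicate 2 was highest for cholesterol synthesis genes (mean 12.62, others at most 12.29), and WT CONT replicate 3 lowest for Tmem171 (10.32, others at least 10.46). What these arrays share beyond these lists was not tested.

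For 3 genes every Pxr-/- array lay on one side of the WT mean in CONT and on the other under PCN. The genotype difference under PCN minus that in CONT was -1.64 for Nr4a1, 0.70 for Serpina3n and -0.42 for Pmvk. The interaction was not past the threshold for any of them (limma, adjusted p = 0.827 for each), and the labels of several PCN arrays are in doubt.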

How the results depend on the processing

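The count of 20 called genes changed with many settings. From the scanner's processed intensity scaled to the 75th percentile 9 genes were called, without a filter on dim probes 6, with 1 probe per gene 5, and with array weights 563. With all 17 arrays in 1 fit 0 were called (4868 probes at an unadjusted p under 0.05), as with the slide as a random block in that fit, a setting chosen after seeing the data (5031 probes). A slide block for the 9 arrays could not be fitted, since 1 slide alone held 2 of them. Leaving out 1 array at a time gave 0 to 301 genes, the latter without WT CONT replicate 4, with 32 without Pxr-/- CONT replicate 1, 5 without replicate 4, 2 without replicate 5 (5330426P16Rik and A130072N09Rik), 1 without replicate 2, 6 without WT CONT replicate 3 and 1 without WT CONT replicate 2 (5330426P16Rik in both cases of 1). Without the pair of arrays with pancreatic transcripts 98 genes were called, and 567 without the 3 arrays with pancreatic or liver transcripts. Wash bath 1 alone gave 31 genes and bath 2 alone 3 (Car3, Cfd and a transcript without a gene name). An FDR of 0.10 gave 113. Without the wash bath term 17 genes were called, 1 higher and 16 lower, in place of 7 and 13. The 1 higher was the heavy constant gamma 2C transcript, whereas Itln1 and the other called genes that were higher lost their call.

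With the replicate number as a block 7 genes were called, all higher. The numbers do not pair the arrays, as the correlations of same-numbered deviations were 0.37, 0.19, -0.07 and -0.11. Under PCN the count stayed at 0 in each setting, and the interaction called 1 gene, Sh2d7 (-1.94), without both arrays of each near-identical pair. Nr1i2 was not called in any of the settings planned for it, its difference ranging from -1.5 to -0.67.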
